A study of Rattus norvegicus with 6 samples.

Results

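The genes described here encode the integrin subunits that bind collagens and laminins, measured by RNA sequencing in cells grown from rat amniotic fluid. The 9 genes were chosen by name and function, as 4 collagen-binding alpha subunits, 3 laminin-binding alpha subunits and 2 beta subunits, from a table of 22085 genes. They were selected on knowledge of their counts and FPKM values in these same libraries. Their levels and differences are therefore a description, and the p-values beside them are those of a fit over all genes. The study holds 3 control libraries and 3 from a preeclampsia model (preeclampsia is high blood pressure with organ damage in pregnancy), with fluid taken at embryonic day 18.5 and cells harvested at passage 4. Both groups were grown in DMEM/F12 with fetal serum and antibiotics. How the model was made, the strain, the age of the dams and how many animals each library holds are not given in the sources used here, so p-values measure the spread between these libraries, which may be technical.

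Integrins are receptors of 1 alpha and 1 beta chain that span the cell membrane and tie the matrix outside to the actin cytoskeleton inside. The alpha chain sets the ligand: alpha-1, alpha-2, alpha-10 and alpha-11 bind collagens, and alpha-3, alpha-6 and alpha-7 bind laminins. All of them pair with the beta-1 chain, and alpha-6 also pairs with beta-4, whose long tail joins keratin filaments at the hemidesmosomes of epithelia. Cells of mesenchymal origin are known for beta-1 integrins, with alpha-11 typical of fibroblasts and alpha-1 and alpha-7 prominent in smooth muscle.

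The labels call the cells mesenchymal stem cells, and the 9 mesenchymal markers summed to between 5789 and 9289 FPKM per library, most of it from Col1a1, Col1a2 and Cxcl12. Thy1, Vim and Pdgfrb were at 133.4 FPKM or more in every library, while Nt5e ranged from 6.02 to 104.1 and Eng from 3.72 to 44.5. Pdgfra stood at 99.8, 97.7 and 116.1 FPKM in controls 1 to 3 against 225.5, 236.0 and 410.6 in preeclampsia libraries 1 to 3. Of the 9 mesenchymal markers, 7 were higher and 2 lower in the preeclampsia group, with a median log2 fold change of 0.17. Among them edgeR called 0 and DESeq2 called 1. FPKM is the number of fragments scaled by transcript length and by the library's total, the only scale used here to compare levels between genes. The 6 endothelial markers summed to between 0.56 and 3.74 FPKM, with at least 4 of the 6 under 0.1 in each library. The 5 mesothelial markers summed to 2.8, 15.2 and 8.76 FPKM in controls 1 to 3 against 18.3, 15.7 and 29.6 in preeclampsia libraries 1 to 3. Of these 5, 4 were lower and 1 higher in the preeclampsia group, and 2 were lower without control library 2. The higher 1, Msln, was at 1.06, 2.03 and 1.76 FPKM in controls against 17.0, 11.8 and 20.9. The 10 macrophage and blood cell markers summed to 20.2 and 22.6 FPKM in control library 3 and preeclampsia library 1 and to between 99.3 and 341.6 in the other 4. The 8 epithelial markers summed to 5.85, 56.9 and 12.99 FPKM in controls 1 to 3 against 0.68, 2.04 and 2.16 in preeclampsia libraries 1 to 3. These sums did not overlap, and Epcam was at 0.1 FPKM or less throughout. Only 3 of the 8 epithelial markers passed the filter on low counts. All 3 were lower in the preeclampsia group (median log2 fold change -3.90). Of these 3, edgeR called 0 and DESeq2 called 2. Without control library 2, 4 of 5 tested were lower, with a median of -1.285. With every library kept and no filter on low counts, 6 of the 8 were lower, and the median was -2.37. The count and the median of the epithelial markers thus depended on the filter. The 8 smooth muscle markers ran from 707.1 to 2448 FPKM in control libraries and from 639.2 to 966 in preeclampsia libraries. All 8 of them were lower in the preeclampsia group, as were most of the integrin genes. The median log2 fold change of the 8 markers was -0.96 (-0.64 without control library 1 and -1.59 without preeclampsia library 1). The number lower was 6 without control library 1 and 6 without preeclampsia library 3. Of these 8, edgeR called 0, with an unadjusted p under 0.05 for 2, and DESeq2 called 2, Actg2 and Myh11. The part of smooth muscle-like, epithelial or blood cells in the integrin differences was not tested. The 8 genes of the G2 and M phases summed to 341 FPKM in preeclampsia library 1 and to 175.5 or less elsewhere. In such bulk libraries, fewer cells of a type and less RNA per cell cannot be told apart.

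Most of the integrin genes were lower in cells of the preeclampsia model. Itga1 averaged 61.3 ± 19.6 FPKM in control cells against 11.6 ± 4.11 in preeclampsia cells (SD, n = 3 each), and Itga3, Itga6, Itga7, Itga11 and Itgb1 also had lower means there. Itga2 and Itgb4 had higher means there, and Itga10 was close to undetected. Of the 9 genes, 8 passed the filter on low counts, and edgeR's quasi-likelihood test called 0 of them at an adjusted p under 0.05, as it called 0% of all 15776 genes tested. The unadjusted p was under 0.05 for 6 of the 8, all of them lower in the preeclampsia group. Over all genes, 5.06% had such a p and were lower and 4.13% had one and were higher. Because the genes were selected with this comparison known, the count is not evidence of its own.

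The levels spanned a wide range, and their order differed between the groups. In control cells the order of mean FPKM was Itgb1, Itga11, Itga1, Itga3, Itga6, Itga2, Itga7, Itgb4 and Itga10. The ranges of Itga1 and Itga3 overlapped there, as did those of Itga6 and Itga2 and of Itga2 and Itga7, while the lowest Itga11 value, 75.4 FPKM, lay just above the highest Itga1 value, 74.8. In preeclampsia cells Itgb1 and Itga11 still came first, followed by Itga3, Itga2 and Itga1, whose ranges overlapped one another, then Itga6, Itga7, Itgb4 and Itga10. The ranges of Itga2 and Itga6 also overlapped there. Itga7 was below Itgb4 in preeclampsia library 2, at 0.53 against 0.76 FPKM. Both were at 0.62 in library 3, so the order of these 2 rested on library 1. Itga1, at 11.6 FPKM, had a lower mean than Itga3 and Itga2 there, at 21.2 and 20.5. Its place below Itga2 rested on preeclampsia library 3, where Itga2 was 44.9 FPKM and Itga1 15.97. In preeclampsia library 1 Itga1 was above Itga2, at 7.81 against 5.35, and in library 2 the values were 11.1 and 11.3.

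**Figure D1:**
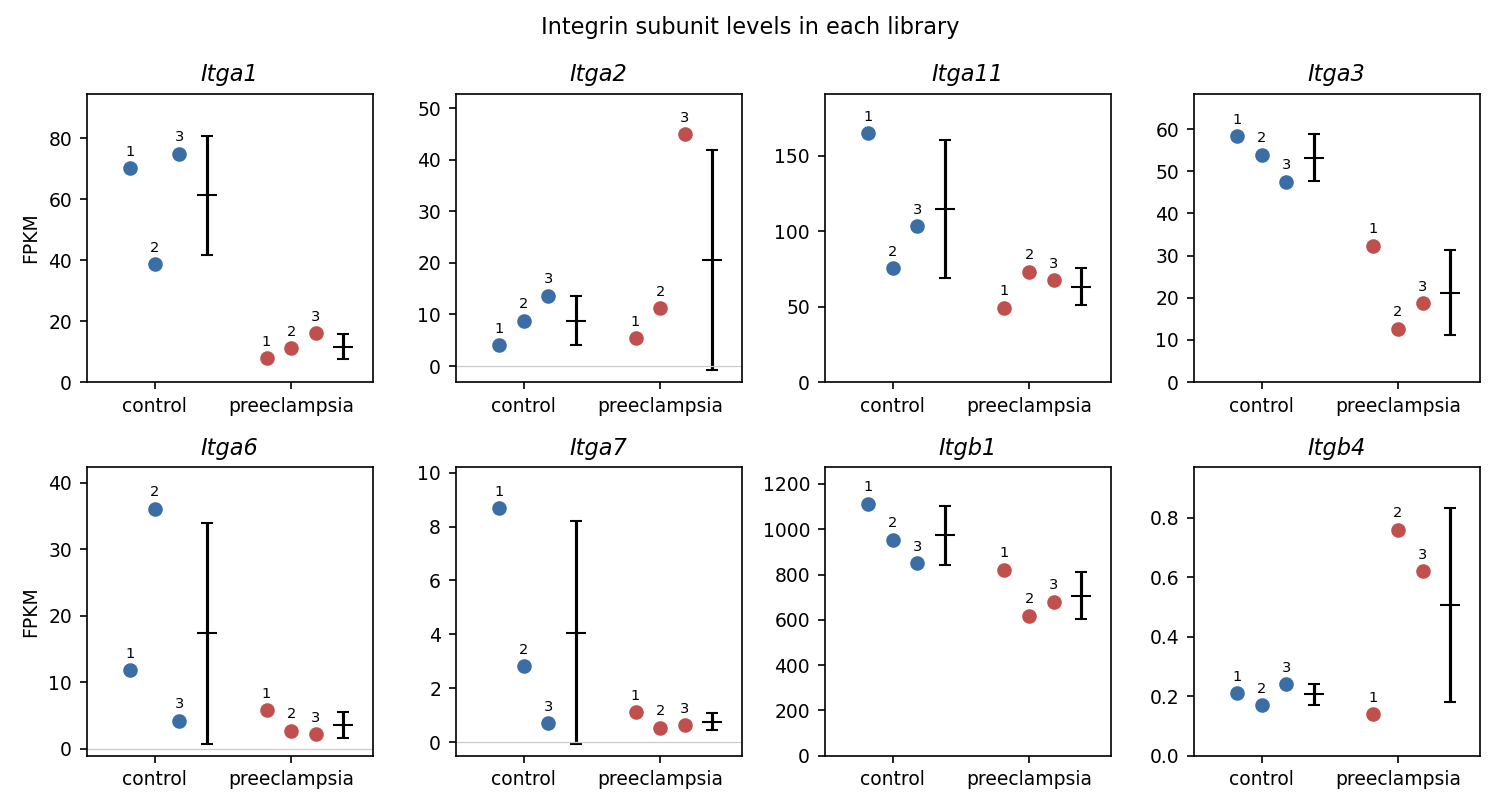
FPKM (vertical axis, linear, a separate scale for each gene) of 8 integrin genes in 3 control (blue) and 3 preeclampsia (red) libraries. Points are libraries, numbered by replicate, and black bars are the mean ± SD. The groups do not overlap in Itga1, Itga11, Itga3 and Itgb1, while single libraries stand high in Itga2, Itga6 and Itga7.

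Among the collagen receptors, Itga1 showed the widest gap between groups relative to its error. It encodes the alpha-1 chain, which with beta-1 forms a receptor for the network collagen IV and for fibrillar collagens. Itga1 stood at 70.2, 38.8 and 74.8 FPKM in controls 1 to 3 against 7.81, 11.1 and 15.97 in preeclampsia libraries 1 to 3. All 3 preeclampsia libraries lay below all 3 control libraries, the highest at 15.97 and the lowest control at 38.8. The fitted log2 fold change was -2.37 (SE 0.37, 95% interval -3.28 to -1.47), 5.18-fold lower. By edgeR the unadjusted p of 0.00059 ranked 25 among all 15776 genes, and the adjusted p was 0.313. DESeq2, an alternative test that called 1.24% of all genes as lower in the preeclampsia group, called Itga1 with an adjusted p of 4.6e-07.

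Itga1 lies on chromosome 2 from 46646125 to 46812237 on the minus strand, and Itga2 from 46520345 to 46621487 on the same strand, 24637 bases apart. The positions are those of the deposited table, whose sequence names are the chromosomes of mRatBN7.2. The gene Pelo, which encodes a factor that rescues stalled ribosomes, lies within Itga1 on the same strand, from 46797853 to 46799621. The sources used here do not say how reads in shared stretches were assigned. Pelo stood at 6.55, 6.74 and 6.93 FPKM in controls 1 to 3 against 5.54, 5.71 and 5.89 in preeclampsia libraries 1 to 3. In FPKM the groups did not overlap, with Pelo slightly lower in every preeclampsia library. Its log2 fold change was -0.22, with an adjusted p of 0.614 by edgeR.

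Itga2, the neighbour of Itga1, encodes the alpha-2 chain of a receptor for fibrillar collagen known from platelets, epithelia and fibroblasts. It stood at 4.01, 8.77 and 13.6 FPKM in controls 1 to 3 against 5.35, 11.3 and 44.9 in preeclampsia libraries 1 to 3. Only preeclampsia library 3 lay above the control range, and the groups overlapped. The log2 fold change came to 1.27 (SE 0.83, 95% interval -0.73 to 3.27), with an adjusted p of 0.718 by edgeR. Without preeclampsia library 3 it was -0.03, so the direction rested on that library. The ratio of Itga1 to Itga2 FPKM was 17.5, 4.42 and 5.49 in controls 1 to 3 against 1.46, 0.984 and 0.355 in preeclampsia libraries 1 to 3. All 3 control ratios lay above all 3 preeclampsia ratios, whereas the Itga2 levels alone overlapped.

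Itga11 encodes the alpha-11 chain, a collagen receptor of fibroblasts, and was the most abundant of the alpha subunits in every library. It stood at 165, 75.4 and 103 FPKM in controls 1 to 3 against 49.3, 73.0 and 67.4 in preeclampsia libraries 1 to 3. In FPKM the groups were separated by the small gap between 73.0 and 75.4, and in CPM scaled by TMM they overlapped. The fitted log2 fold change was -0.84 (SE 0.34), with an unadjusted p of 0.048 and an adjusted p of 0.539 by edgeR. Without control library 1, the highest, it was -0.44. The 3 uncharacterised loci on the opposite strand within Itga11 held at most 36 counts in any library, against at least 19153 for Itga11.

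Itga10 encodes the alpha-10 chain, a collagen receptor known from cartilage. It had 15 counts in control library 1, 3 in preeclampsia library 1 and 0 in the other 4, and was not tested. A count of 0 allows up to 3 counts, or 0.0507 to 0.062 CPM (counts scaled to library size) at these depths, so it was at or near the limit of detection in both groups.

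Among the laminin receptors, Itga3 differed most steadily. It encodes the alpha-3 chain, which with beta-1 binds laminins of basement membranes and associates with the tetraspanin Cd151. Itga3 stood at 58.4, 53.9 and 47.5 FPKM in controls 1 to 3 against 32.4, 12.6 and 18.7 in preeclampsia libraries 1 to 3. The groups did not overlap, and the control values lay close together while preeclampsia library 1 stood above the other 2 of its group. On the log2 scale the fold change was -1.33 (SE 0.33, 95% interval -2.11 to -0.54), 2.51-fold lower. The unadjusted p was 0.0058 and the adjusted p 0.434 by edgeR, against an adjusted p of 0.013 by DESeq2.

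Itga6 encodes the alpha-6 chain, which pairs with beta-1 or beta-4 and is used as a surface marker of several stem and progenitor cells. It stood at 11.8, 36.1 and 4.23 FPKM in controls 1 to 3 against 5.78, 2.73 and 2.2 in preeclampsia libraries 1 to 3. Control library 2 was far above the rest, and control library 3 lay below preeclampsia library 1, so the groups overlapped. Its log2 fold change was -2.28 (SE 0.80), with an unadjusted p of 0.027 and an adjusted p of 0.478 by edgeR. Without control library 2 it was -1.19, with an unadjusted p of 0.099. Control library 2 also had the highest level of the epithelial keratins Krt8 and Krt18, at 37.4 and 17.2 FPKM, against 8.41 and 4.38 or less in the other 5 libraries. Of the 8 epithelial markers, Krt14 was also highest there, while Krt19 and Ocln were highest in control library 1, at 2.23 and 1.74 FPKM. Epcam, Cdh1 and Cldn4 were under 0.1 FPKM in control library 2. Of the 5 mesothelial markers, Wt1, Upk3b and Bnc1 were highest in control library 2, and Msln and Lrrn4 were not. The part of epithelial or mesothelial cells in the Itga6 level was not tested.

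Itga7 encodes the alpha-7 chain, the main laminin receptor of skeletal muscle, also found in smooth muscle. It stood at 8.68, 2.81 and 0.71 FPKM in controls 1 to 3 against 1.11, 0.53 and 0.62 in preeclampsia libraries 1 to 3. Control library 1 was the highest and control library 3 fell inside the preeclampsia range, so the groups overlapped. The fitted log2 fold change was -2.46 (SE 0.89), with an unadjusted p of 0.030 and an adjusted p of 0.481 by edgeR, and -1.19 without control library 1. Control library 1 also had the highest sum of the smooth muscle markers, 2448 FPKM, and control library 3, with the lowest Itga7 of its group, the next highest, 1445. Of the 8 markers, Acta2, Tagln, Cnn1, Myh11 and Lmod1 were highest in control library 1. Actg2 was highest in control library 2, Des in control library 3 and Myocd in preeclampsia library 1. Itga7 and Mettl7b, on opposite strands, overlap by a few bases at their ends, and Mettl7b had at most 4 counts in any library.

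Itgb1, which encodes the beta-1 chain shared by all of these alpha subunits, was by far the most abundant of the 9 genes. It stood at 1113, 954.7 and 850.5 FPKM in controls 1 to 3 against 820.3, 618.5 and 680.8 in preeclampsia libraries 1 to 3. The groups did not overlap, but the lowest control and the highest preeclampsia library were close. On the log2 scale the fold change was -0.45 (SE 0.18, 95% interval -0.89 to -0.02), 1.37-fold lower, with an unadjusted p of 0.044 and an adjusted p of 0.530 by edgeR. Without control library 1 it was -0.31, with an unadjusted p of 0.129.

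Itgb4, which encodes the beta-4 chain of hemidesmosomes, was under 1 FPKM in every library. It stood at 0.21, 0.17 and 0.24 FPKM in controls 1 to 3 against 0.14, 0.76 and 0.62 in preeclampsia libraries 1 to 3. Preeclampsia libraries 2 and 3 were above the control range and preeclampsia library 1 below it. These values rest on 28 to 171 counts. Its log2 fold change was 1.32 (SE 0.65), with an adjusted p of 0.619 by edgeR. Itgb4 was below Itga6 and far below Itgb1 in each of the 6 libraries.

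**Figure D2:**
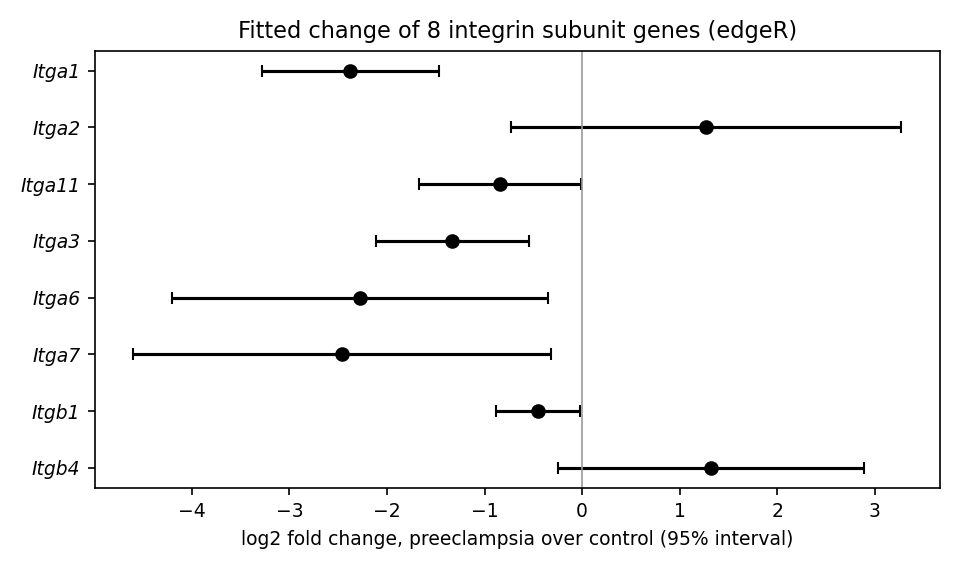
Log2 fold change of preeclampsia over control (horizontal axis) for 8 integrin genes, as fitted by edgeR. Points are the estimates and bars their 95% intervals: Itga1 (-2.37) and Itga3 (-1.33) lie well below 0, the intervals of Itga11 and Itgb1 end close to 0, and those of Itga2 and Itgb4 include 0.

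In 3 of the 8 tested genes, Itga1, Itga3 and Itgb1, the groups did not overlap in CPM scaled by TMM, all 3 lower in the preeclampsia group. Over all genes, 8.3% had groups that did not overlap with preeclampsia lower and 7.25% with preeclampsia higher. As the genes were selected with these values known, nothing is read from the difference. With each library left out in turn, the log2 fold change stayed between -2.67 and -2.14 for Itga1 and between -1.73 and -1.08 for Itga3. The corresponding range was -0.55 to -0.31 for Itgb1, -2.77 to -1.19 for Itga6 and -2.95 to -1.19 for Itga7. Of the 8 tested genes, the number with an unadjusted p under 0.05 was 6, and 3, 2 and 2 without control library 1, preeclampsia library 2 and preeclampsia library 3. Without both control library 3 and preeclampsia library 1, the libraries with the fewest macrophage marker transcripts, the log2 fold changes of Itga1 and Itga3 were -1.998 and -1.82.

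**Figure D3:**
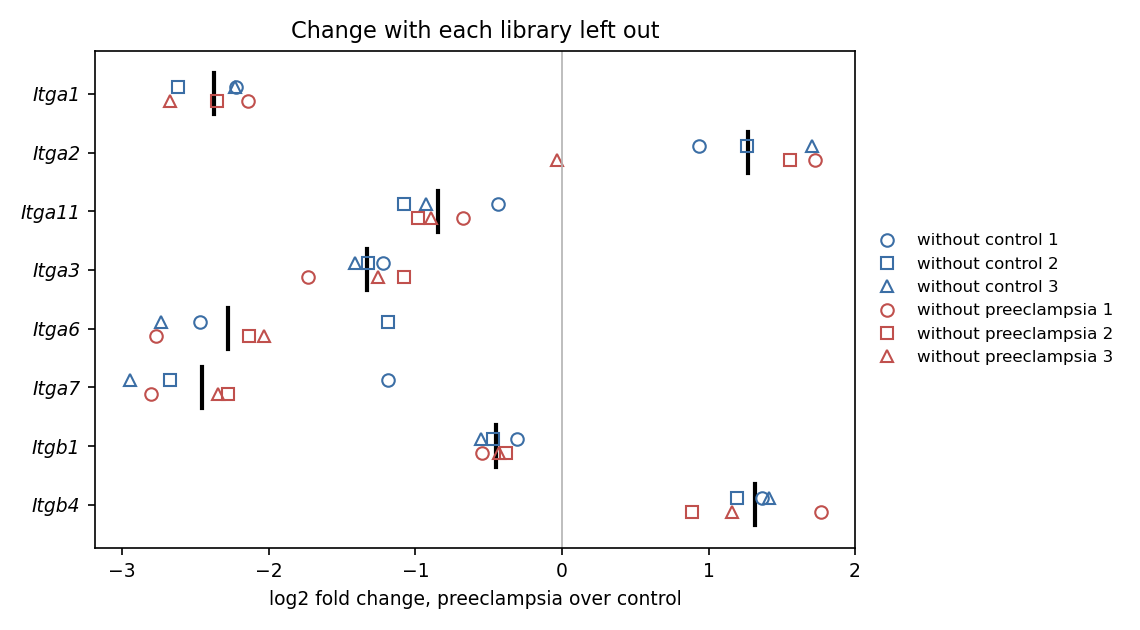
Log2 fold change of preeclampsia over control (horizontal axis) for 8 integrin genes with each library left out, by edgeR. Black bars mark the fit of all 6 libraries, blue symbols leave out a control library and red symbols a preeclampsia library. The values of Itga1 lie between -2.67 and -2.14, whereas Itga2 moves to -0.03 without preeclampsia library 3, Itga6 to -1.19 without control library 2 and Itga7 to -1.19 without control library 1.

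The summed FPKM of the 7 alpha subunits was lower in preeclampsia cells, and its makeup differed. The sum was 318.1, 215.7 and 244.2 FPKM in controls 1 to 3 against 101.8, 111.2 and 149.8 in preeclampsia libraries 1 to 3. The groups did not overlap in this sum. Itgb1 stood at 3.5, 4.43 and 3.48 times the alpha sum in control libraries and at 8.06, 5.56 and 4.54 times in preeclampsia libraries. Itga1 made up 22.1%, 18% and 30.6% of the alpha sum in controls 1 to 3 against 7.67%, 9.95% and 10.7% in preeclampsia libraries 1 to 3. Itga11 made up 43.0% ± 8.49 in control cells and 53.0% ± 11.1 in preeclampsia cells (SD, n = 3 each), with overlapping values. Itga2 made up 1.26%, 4.07% and 5.59% in controls 1 to 3 against 5.26%, 10.1% and 30.0% in preeclampsia libraries 1 to 3, again with overlap. Itga3 made up 31.8% in preeclampsia library 1, more than in any control library, and 11.3% and 12.5% in preeclampsia libraries 2 and 3, less than in any control library. These shares are of FPKM, a measure of transcript level, and not of receptors on the surface.

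**Figure D4:**
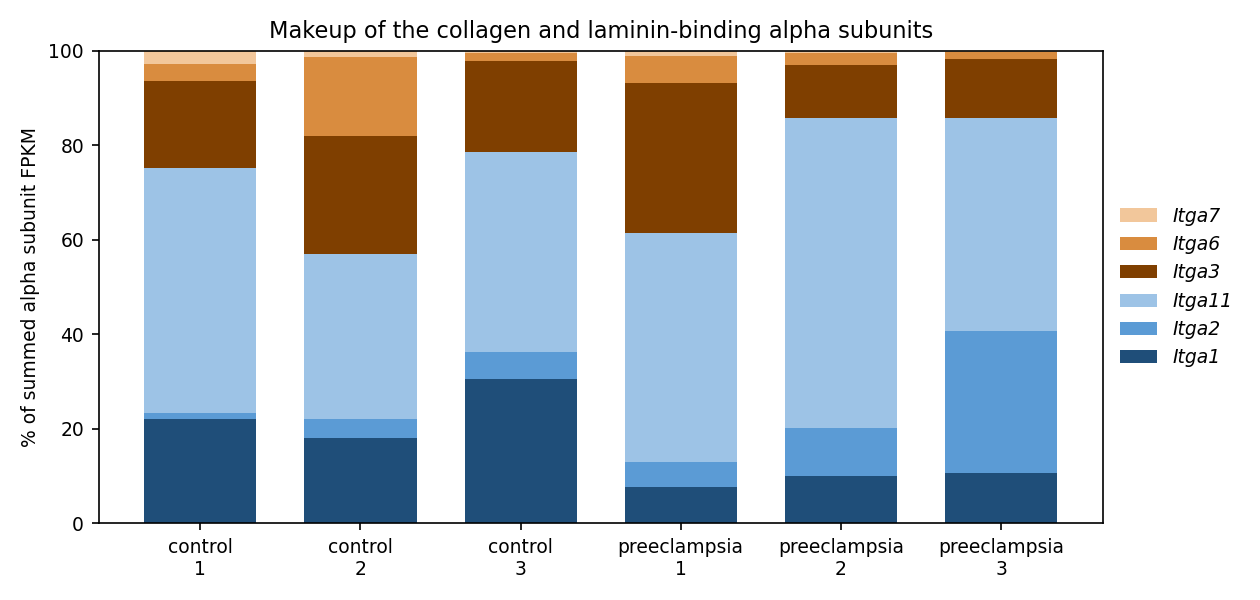
Share of each alpha subunit gene in the summed FPKM of the collagen-binding (blue) and laminin-binding (brown) alpha subunits (vertical axis, percent) in each of the 6 libraries. Itga1 takes 18% to 30.6% of the control bars and 7.67% to 10.7% of the preeclampsia bars, while Itga11 is the largest part of each bar. Itga10, at 0.0157% or less, is too small to be drawn.

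The promoter windows of the 3 genes with separated groups are shown because they are the members that were lower in every preeclampsia library than in any control library on both scales. Each window runs from 250 bases before to 50 bases after the RefSeq gene start, in build GRCr8, read along the strand of the gene, and 6 of the 9 genes matched the table of windows. Capitals mark matches, on either strand, to the GC box (GGGCGG), the TEAD motif (GGAATG), the AP-1 motif (TGANTCA) or the TATA box (TATAAA). The windows are chr2:48545234-48545533 on the minus strand for Itga1, chr10:80518852-80519151 on the minus strand for Itga3 and chr19:73602027-73602326 on the plus strand for Itgb1.
Itga1: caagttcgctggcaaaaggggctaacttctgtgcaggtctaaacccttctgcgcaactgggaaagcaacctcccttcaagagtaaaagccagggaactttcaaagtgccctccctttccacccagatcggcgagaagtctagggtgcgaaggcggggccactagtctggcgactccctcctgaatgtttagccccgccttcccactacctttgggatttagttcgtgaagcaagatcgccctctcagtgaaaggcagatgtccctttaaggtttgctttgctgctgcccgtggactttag
Itga3: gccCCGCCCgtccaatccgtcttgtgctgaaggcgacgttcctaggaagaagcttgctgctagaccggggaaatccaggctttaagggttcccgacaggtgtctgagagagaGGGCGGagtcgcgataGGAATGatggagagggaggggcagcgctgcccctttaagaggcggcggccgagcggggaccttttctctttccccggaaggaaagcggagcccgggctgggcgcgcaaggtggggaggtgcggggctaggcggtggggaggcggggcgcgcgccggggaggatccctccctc
Itgb1: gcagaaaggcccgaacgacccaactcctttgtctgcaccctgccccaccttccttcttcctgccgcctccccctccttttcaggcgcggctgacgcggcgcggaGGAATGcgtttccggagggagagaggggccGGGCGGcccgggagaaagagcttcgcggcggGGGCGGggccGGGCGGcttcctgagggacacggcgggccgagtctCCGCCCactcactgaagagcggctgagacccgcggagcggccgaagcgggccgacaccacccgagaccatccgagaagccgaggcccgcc

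The Itga1 window held none of the 4 motifs, and 53.7% of its bases were G or C. The Itga3 window held 2 GC boxes and 1 TEAD motif at 67.0% G or C, and that of Itgb1 held 4 GC boxes and 1 TEAD motif at 71.7%. Of all 33469 windows of this length, 33.1% held a GC box, 14.2% a TEAD motif, 7.33% an AP-1 motif and 14.2% a TATA box, and the median share of G or C was 51.7%. A match is a run of letters and not a shown binding site, and no match says only that these letters are not in the window.

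The genes whose profile over the 6 libraries was most like that of Itga1 were Tmem87b (Pearson r of log2 CPM 0.993), Mrtfa (r = 0.9925) and Gprin3 (r = 0.988), out of 10644 genes searched. Mrtfa, which encodes an actin-sensing coactivator of serum response factor, stood at 28.0, 28.6 and 30.0 FPKM in controls 1 to 3 against 24.3, 23.7 and 24.8 in preeclampsia libraries 1 to 3. Its range was thus far narrower than that of Itga1, with a log2 fold change of -0.23. Those most like Itgb1 were Morc2 (r = 0.993), Pign (r = 0.988) and Lgalsl (r = 0.986), with log2 fold changes of -0.26, -0.24 and -1.13. With 6 points that fall into 2 groups, and so many genes searched, such values describe the profiles and nothing more.

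The other integrin chains did not show one direction. Of the 17 other subunits, 15 were tested, 9 were lower and 6 higher in the preeclampsia group, and their median log2 fold change was -0.13 against 0.01 for all genes (-0.33 without control library 2 and 0.21 without control library 3 and preeclampsia library 1). The 2 most abundant overlapped between the groups: Itgb5, a vitronectin receptor chain, was at 105.0 ± 44.4 and 88.4 ± 12.6 FPKM, and Itga5, the fibronectin receptor chain, at 34.4 ± 5.53 and 28.3 ± 3.12. Itgb3, which pairs with alpha-v, stood at 17.9, 31.2 and 28.6 FPKM in controls 1 to 3 against 7.82, 7.96 and 11.9 in preeclampsia libraries 1 to 3, without overlap. Its log2 fold change was -1.46 (SE 0.26), with an adjusted p of 0.373 by edgeR and 2.4e-04 by DESeq2. DESeq2 called 1 further subunit, Itga4, named after its values were seen, at 4.41 FPKM in the control and 1.44 in the preeclampsia group on average. Itgb7, a leukocyte chain, was listed at 0 in all 3 control libraries and had 0.03, 0.05 and 0.11 FPKM in those of the preeclampsia model.

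The genes of the ligands did not show one direction. Of 11 collagen genes tested, 6 were lower and 5 higher, and their median log2 fold change, -0.02, was 0.37 without control library 1. Without control library 2, 3 of the 11 were lower. The fibrillar collagen I genes were abundant: Col1a1 was at 2482 ± 638.5 FPKM in the control and 3239 ± 917.2 in the preeclampsia group, and Col1a2 at 963.4 ± 155.7 and 1392 ± 81.2. The values of Col1a2 did not overlap, and its log2 fold change was 0.55 (SE 0.19, adjusted p of 0.473 by edgeR). Col16a1, a fibril-associated collagen that binds alpha-1 and alpha-2 integrins, stood at 19.9, 21.5 and 20.9 FPKM in controls 1 to 3 against 42.8, 47.7 and 44.0 in preeclampsia libraries 1 to 3. It was thus higher where Itga1 was lower, with a log2 fold change of 1.13 (SE 0.12) and adjusted p-values of 0.228 by edgeR and 8.2e-18 by DESeq2. Of 10 laminin chains tested, 4 were lower and 6 higher, and their median of 0.14 was -0.06 without control library 3, with 6 of 11 lower, and 0.47 without control library 1. Lamc1 and Lamb1, the common gamma and beta chains, were at 3072 ± 571.1 and 3688 ± 344.8 FPKM and at 773.7 ± 42.2 and 719.0 ± 208.3. Lama4, an alpha chain of vessel and muscle basement membranes, was at 75.6 ± 17.8 and 113.2 ± 10.8 FPKM, with a log2 fold change of 0.60 (SE 0.22, adjusted p of 0.499 by edgeR).

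Of the 24 adaptors and kinases that join integrins to actin, 22 were lower in the preeclampsia group, most of them slightly, with a median log2 fold change of -0.20, while 48.3% of all genes were lower. The number lower was 22 with RLE size factors too, and ran from 19 to 22 with a library left out. By edgeR 2 of the 24, Ptk2 and Lims2, had an unadjusted p under 0.05, where 5.06% of all genes had such a p and were lower. The groups did not overlap in 4 of the 24, all lower, against 8.3% of all genes. As the list was written with earlier results known, nothing is read from these counts. Ptk2, the focal adhesion kinase gene, was at 49.8, 59.7 and 57.9 FPKM in controls 1 to 3 against 45.6, 43.1 and 46.8 in preeclampsia libraries 1 to 3, a log2 fold change of -0.28 (SE 0.10, adjusted p of 0.483 by edgeR). Lims2, a partner of integrin-linked kinase, was at 19.7 ± 8.54 and 9.89 ± 2.48 FPKM (log2 fold change -0.98, adjusted p of 0.501 by edgeR). The most abundant of the list, Parva and the actin crosslinker Actn1, were at 1055 ± 235.1 and 899.0 ± 67.2 FPKM and at 993.9 ± 171.5 and 715.3 ± 103.5.

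Among the membrane partners, Cd151, a tetraspanin that binds the laminin-binding integrins alpha-3, alpha-6 and alpha-7, stood at 257.3, 276.8 and 369.3 FPKM in controls 1 to 3 against 203.2, 200.2 and 195.1 in preeclampsia libraries 1 to 3. The groups did not overlap, as for Itga3, and the log2 fold change was -0.57 (SE 0.15, adjusted p of 0.441 by edgeR and 0.051 by DESeq2). Of the 9 membrane partners tested, 5 were lower and 4 higher, but 2 were lower without control library 2 and 2 without preeclampsia library 3. Bsg, which encodes basigin, was at 287.4 ± 26.5 and 386.8 ± 56.8 FPKM (log2 fold change 0.46, adjusted p of 0.478 by edgeR), and Cd63 at 333.2 ± 12.8 and 339.7 ± 37.8. Of the 9 non-integrin receptors, 3 were lower and 6 higher, against 5 lower without preeclampsia library 1, 5 without preeclampsia library 2 and 2 with RLE size factors. Dag1, which encodes the laminin receptor dystroglycan, was at 115.6, 80.9 and 118.7 FPKM in controls 1 to 3 against 71.6, 74.4 and 74.6 in preeclampsia libraries 1 to 3 (log2 fold change -0.50, adjusted p of 0.488 by edgeR). Mrc2, an uptake receptor for collagen, was at 80.0 ± 27.8 and 106.2 ± 20.9 FPKM. Rpsa, a ribosomal protein also described as a laminin receptor and with many processed pseudogenes, was at 1156 ± 88.5 and 1413 ± 106.1 FPKM. Of the 6 hemidesmosome genes, Cd151, Itga6 and Itgb4 are described above, Plec was at 44.0 ± 3.62 and 46.1 ± 6.90 FPKM, and the epidermal Col17a1 averaged 0.06 FPKM in both groups.

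**Figure D5:**
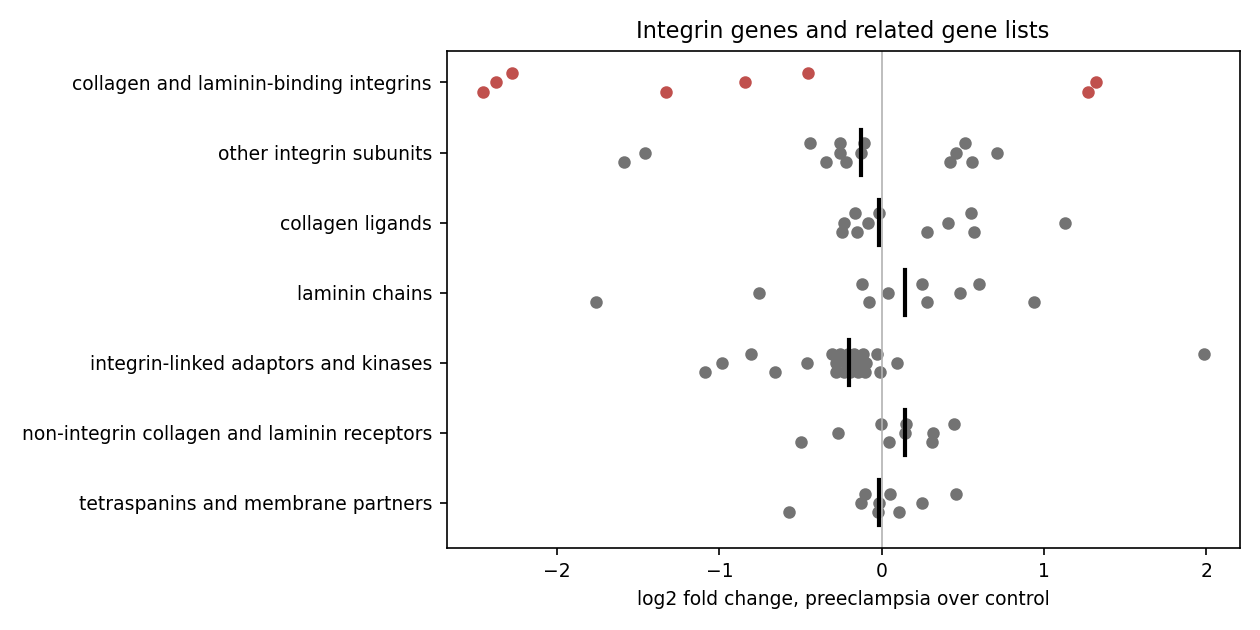
Log2 fold change of preeclampsia over control (horizontal axis, edgeR) for the tested collagen and laminin-binding integrin genes (red) and for 6 related gene lists (grey). Each point is a gene, black bars are the medians of the related lists, and Itgb7, listed at 0 in all control libraries, is counted in the median but not drawn. The adaptors and kinases gather just below 0 (median -0.20), and the collagen ligands lie around 0 (median -0.02).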

How the data were processed

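RNA was enriched on oligo(dT) beads and copied with random primers, with molecular identifiers on the adapters, per the labels' protocols. Per the submitters' processing notes, the tools included HISAT2 2.2.1, StringTie 2.1.6, FastQC and cutadapt 1.9. The sources used here state neither strandedness nor identifier collapsing, and name no genome build, though the sequence names are those of mRatBN7.2. Per the file headers, the authors deposited a count and an FPKM value for each gene in every library. Of counts from 1 to 15, 35.1% to 38% per library were multiples of 4, so low counts may derive from coverage and be less exact than they look.

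The counts, 48402185 to 59193961 per library, entered edgeR 4.0.16 (R 4.3.3; filterByExpr, TMM scaling, quasi-likelihood test), preeclampsia over control, adjusted by Benjamini-Hochberg over 15776 genes and called under 0.05. The biological coefficient of variation was 0.418. DESeq2 1.42.0 on the same genes, RLE size factors, other filters, limma 3.58.1 on log2(FPKM + 1) and log2(FPKM + 0.1), a replicate block and left-out libraries were alternatives. With fewer libraries, genes were filtered anew. Scripts were tested on simulated data. Same-numbered libraries were not treated as pairs.

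Members and lists were chosen with earlier results of these data known. All 9 members are named. From each related list the 2 genes with the highest mean FPKM are named, with up to 2 more of smallest p under 0.05, and for 2 members the 3 genes most like them. No protein sequences were used here. Genes overlapping a member were sought on either strand, and their strands are those of the deposited table.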

Additional observations from a re-analysis of the deposited data

How the results depend on the processing

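No alternative reversed the direction of a tested member other than Itga2. Its log2 fold change was -0.032 without preeclampsia library 3 and up to 1.73 with another library left out. DESeq2 called 350 of the 15776 genes tested, among them 2 of the 9 members (Itga1, -2.36, and Itga3, -1.31). It also called Itgb3 and Itga4 of the other integrin subunits. By edgeR 0 genes were called, and the cause of this difference was not tested. With a library left out, edgeR called 0 to 2 genes, 0 of them members, and without control library 3 and preeclampsia library 1 together it called 3. The number of genes with an unadjusted p under 0.05 was 1450, and 2801 without those 2 libraries. The number whose groups did not overlap was 2454, and 3712 to 5452 with 1 library left out and 8274 with both left out. Groups of fewer libraries overlap less often, so these numbers cannot be compared directly with 2454. The part of which libraries were left out was not tested. The number of members with an unadjusted p under 0.05 was 6, and 2 to 7 with a library left out. Over all alternatives the adjusted p ran from 4.6e-07 to 0.759 for Itga1 and from 0.013 to 0.759 for Itga3.

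Same-numbered libraries correlated at 0.048, 0.041 and 0.010 in their deviations from the group means. With so few libraries such values can neither show nor exclude a pairing. The sources used here state none, so the numbers were not taken to pair the libraries. With the replicate number as a block edgeR called 0 genes, and the log2 fold change was -2.38 for Itga1 and -1.41 for Itga3. Depth limited Itga10, which had 15 counts or fewer in each library.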
